A study of Mus musculus with 16 samples.

Results

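The genes described here are the transcription factor gene Nfe2l2, its repressor Keap1, and 8 antioxidant genes of the oxidant defence that NRF2 directs or works beside: Srxn1, Nqo1, Hmox1, Txnrd1, Txn1, Prdx1, Sod1 and Sod2. They were taken by name from the count files and are 10 of the 19108 genes listed there. Expression was measured by stranded, paired-end sequencing of polyadenylated RNA from the quadriceps, a thigh muscle, of C57BL/6 mice. There were 4 ANT1(Tg)/+ females, 4 WT females, 4 ANT1(Tg)/+ males and 4 WT males, called Tg and WT below. All 16 mice were 6 months old and ate regular chow without limit, and WT mice were age-matched, and littermates where these could be had. The sources used here do not name the promoter that drives the transgene, nor say whether the line goes back to a single founder. Each library is taken as 1 mouse, so the spread between libraries holds both animal and technical variation.

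NRF2, the protein of Nfe2l2, is a basic leucine zipper transcription factor. In resting cells KEAP1 ties it to a CUL3 ubiquitin ligase, which marks it for the proteasome. Oxidants and electrophiles modify KEAP1, so that newly made NRF2 reaches the nucleus, pairs with a small MAF protein and binds antioxidant response elements. Much of its control is therefore on the protein, which RNA counts do not measure. In muscle its targets restore thioredoxin, glutathione and NADPH, while superoxide dismutases act upstream by turning superoxide into hydrogen peroxide.

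Depth ranged between 17.4 and 30.7 counts per library in units of 1000000, and levels are given as counts per 1000000 (CPM) on scaled library sizes. Slc25a4, the current name of Ant1, encodes a mitochondrial ADP/ATP carrier and averaged 9755 ± 876 CPM in Tg muscle and 3399 ± 408 CPM in WT muscle (SD, n = 8 each). Its counts do not separate the transgene from the mouse's own gene. The fast fibre gene Myh4 had 49563 to 84806 CPM in Tg libraries and 60916 to 108100 CPM in WT libraries, so this marker of the labelled tissue was high in all 16 libraries, although it was called lower in Tg (adjusted p = 0.00557 in edgeR). A set of 4 libraries was rich in fat genes: 1 Tg female and 2 WT females with 143 to 252 CPM of the brown fat gene Ucp1, which was at most 0.762 CPM elsewhere, and 1 WT male. WT male 1 entered by its summed adipocyte markers (4714 CPM), over 3 times the median of 1522 CPM, a limit that WT female 2 also passed. For Tg female 4 the label rests on Ucp1, as its adipocyte sum of 2420 CPM was below that of Tg male 2 (2618 CPM). Results that change without these 4 libraries are given so. In whole muscle, a lower share of cells of a type and less RNA per cell cannot be told apart.

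Of the 10 genes, 6 rose in Tg muscle and 0 fell when the genotype effect was averaged over the sexes. The increase was large only for Srxn1 (3.57-fold), was 1.63-fold for Hmox1 and 1.39-fold for Nqo1, and stayed between 1.18-fold and 1.28-fold for Nfe2l2, Txnrd1 and Keap1. Txn1, Prdx1, Sod1 and Sod2 did not pass the test. Calls were made with edgeR's quasi-likelihood test at a Benjamini-Hochberg adjusted p under 0.05 over 13666 genes. By that rule 30.4% of all tested genes were called, 17.2% higher in Tg and 13.3% lower. The median log2 fold change was 0.28 over the 10 genes and -0.01 over all tested genes. No gene that failed the test is shown to be the same in both genotypes.

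**Figure D1:**
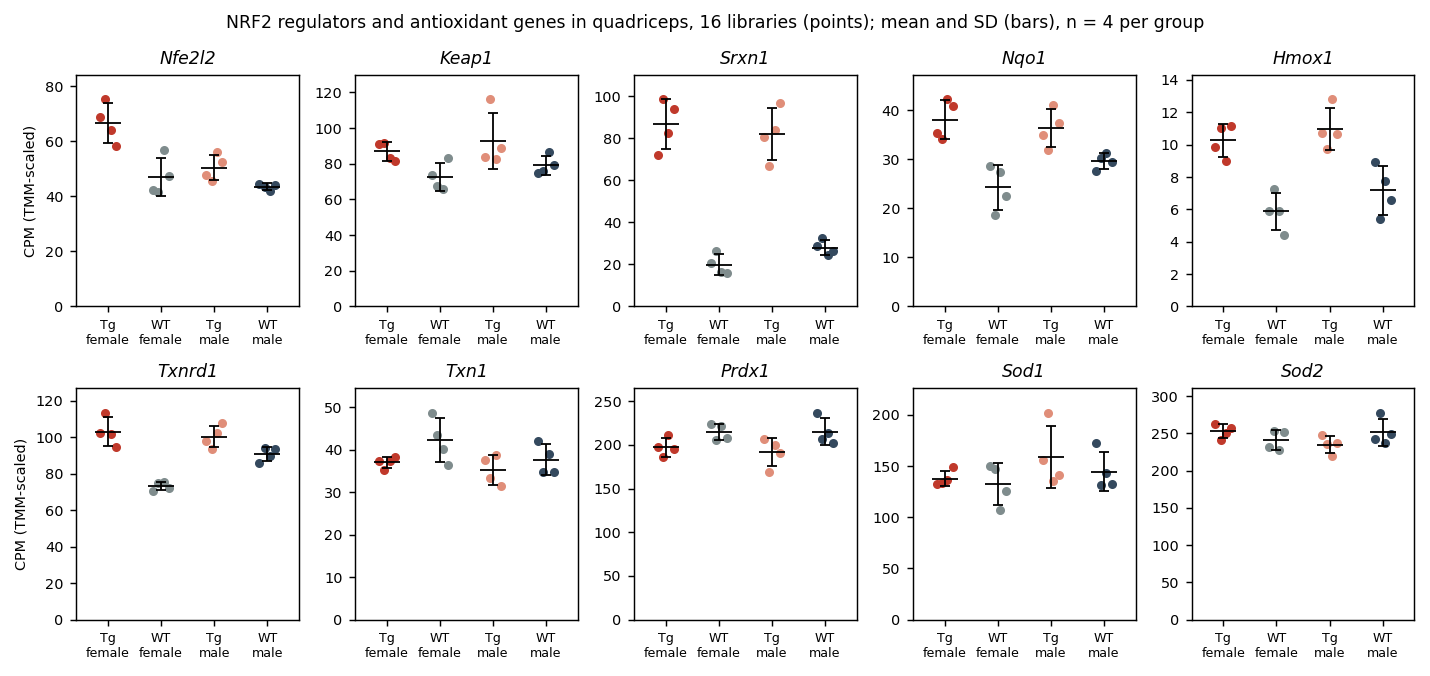
Expression of the 10 genes in CPM (vertical axes, starting at 0) in each of the 16 libraries (points), by genotype and sex; horizontal bars give the mean and the SD, n = 4 per group. Tg libraries lie above all WT libraries for Srxn1, Nqo1 and Hmox1, while the groups of Txn1, Prdx1, Sod1 and Sod2 overlap.

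Nfe2l2 itself lies on the minus strand of chromosome 2 from 75675513 to 75704641 (ENSMUSG00000015839.6, build GRCm38, the same as mm10). It had 69.0, 75.2, 63.9 and 58.5 CPM in the 4 Tg females, against 42.4, 41.5, 56.9 and 47.2 CPM in the WT females. In males it had 47.7, 45.7, 56.1 and 52.3 CPM in Tg muscle, against 44.4, 43.4, 41.8 and 44.2 CPM in WT muscle. Within each sex every Tg library was above every WT library, but 1 WT female lay above all 4 Tg males. The averaged log2 fold change was 0.36 (SE 0.07, adjusted p = 0.0012 in edgeR), a 1.28-fold increase.

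Keap1, the substrate adaptor that holds NRF2 back, lies on chromosome 9 from 21229730 to 21239361 on the minus strand (ENSMUSG00000003308.15). It had 91.0, 91.7, 83.4 and 81.5 CPM in Tg females, against 73.5, 67.7, 66.0 and 83.3 CPM in WT females. In males it had 84.0, 116, 82.9 and 88.8 CPM in Tg muscle, against 74.7, 75.9, 86.8 and 79.2 CPM in WT muscle. The groups overlapped in both sexes, and a single Tg male stood above all the others. The averaged log2 fold change was 0.24 (SE 0.07, adjusted p = 0.0193 in edgeR). This call was lost without the 4 fat-rich libraries (0.21, adjusted p = 0.123 in edgeR) and without the 2 adipocyte-rich ones among them, WT female 2 and WT male 1 (0.22, adjusted p = 0.0571 in edgeR). It was also lost with the summed macrophage markers as a covariate (0.21, adjusted p = 0.0697 in edgeR). An antisense gene, Gm16754, covers 1522 exon bases of Keap1, and no source used here says whether strand was taken into account in counting, so the 2 cannot be told apart.

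Srxn1 encodes sulfiredoxin, the enzyme that uses ATP to restore overoxidised peroxiredoxins, and was the gene that moved most of the 10. It lies on the plus strand of chromosome 2 from 152105516 to 152111376 (ENSMUSG00000032802.8). It had 71.9, 98.6, 82.4 and 93.8 CPM in Tg females, against 20.9, 26.3, 16.3 and 16.1 CPM in WT females. In males it had 80.6, 66.9, 84.1 and 96.9 CPM in Tg muscle, against 28.7, 32.3, 24.4 and 26.5 CPM in WT muscle. The lowest Tg library was above the highest WT library by more than the whole WT range, in either sex and over both. The averaged log2 fold change was 1.84 (SE 0.11, adjusted p = 6.81e-09 in edgeR), which ranked 66 of 13666 genes by p. Without the 4 fat-rich libraries it was 1.95.

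The promoters of Srxn1 and of Prdx1, a gene of the same peroxide cycle whose level did not pass the test, are shown because among the 9 of the 10 genes with a RefSeq promoter, only these held the full site of NRF2 with a small MAF. The sequences are RefSeq's for build GRCm38, from the start of the promoter window to the base before the gene's first annotated base; capitals mark matches to TGANTCAGC or to its inner part TGANTCA, on either strand.
Srxn1, chr2:152105274-152105515, plus strand: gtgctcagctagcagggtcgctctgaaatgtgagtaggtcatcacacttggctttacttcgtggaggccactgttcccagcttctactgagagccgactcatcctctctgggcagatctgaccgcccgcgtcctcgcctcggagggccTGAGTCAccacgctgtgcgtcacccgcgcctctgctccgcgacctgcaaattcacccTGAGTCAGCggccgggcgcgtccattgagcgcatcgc
Prdx1, chr4:116685349-116685543, plus strand: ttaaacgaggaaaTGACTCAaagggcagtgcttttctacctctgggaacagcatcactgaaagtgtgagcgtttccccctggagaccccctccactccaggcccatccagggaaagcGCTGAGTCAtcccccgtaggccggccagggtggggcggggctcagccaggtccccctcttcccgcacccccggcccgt

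In Srxn1 the longer match spans positions -45 to -37 from the RefSeq transcript start, read on the sense strand. In Prdx1 it spans -133 to -125 and is read on the antisense strand. Each promoter held a further, separate match to TGANTCA, the site shared with AP-1 factors, at -102 to -96 in Srxn1 and at -237 to -231 in Prdx1. Of 32851 promoter windows of 300 bases (250 before to 50 after the start), 1.19% held TGANTCAGC and 7.81% held TGANTCA. Both motifs were found in 2 of the 9 genes, which are all but Hmox1. These genes have 11 windows, so a share of genes and a share of windows are not the same measure.

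The looser core TGACNNNGC, which TGACTCAGC also satisfies, matched in 5 of these 9 genes (Nfe2l2, Srxn1, Txnrd1, Prdx1 and Sod1), and in 12.4% of all windows. Txnrd1 matched in 1 of its 3 windows. In Srxn1 the core lay after the start, at positions 28 to 36, apart from the longer match. TGATGNAA, the composite site of ATF4 with a C/EBP protein, matched in 0 of the 9 and in 3.97% of all windows. Genes with the core were thus found both among those that rose (Nfe2l2, Srxn1, Txnrd1) and among those that did not pass the test (Prdx1, Sod1). Nqo1 and Keap1, which rose, had no match to any of the 4 motifs in the window, which says only that these letters are not in it.

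**Figure D2:**
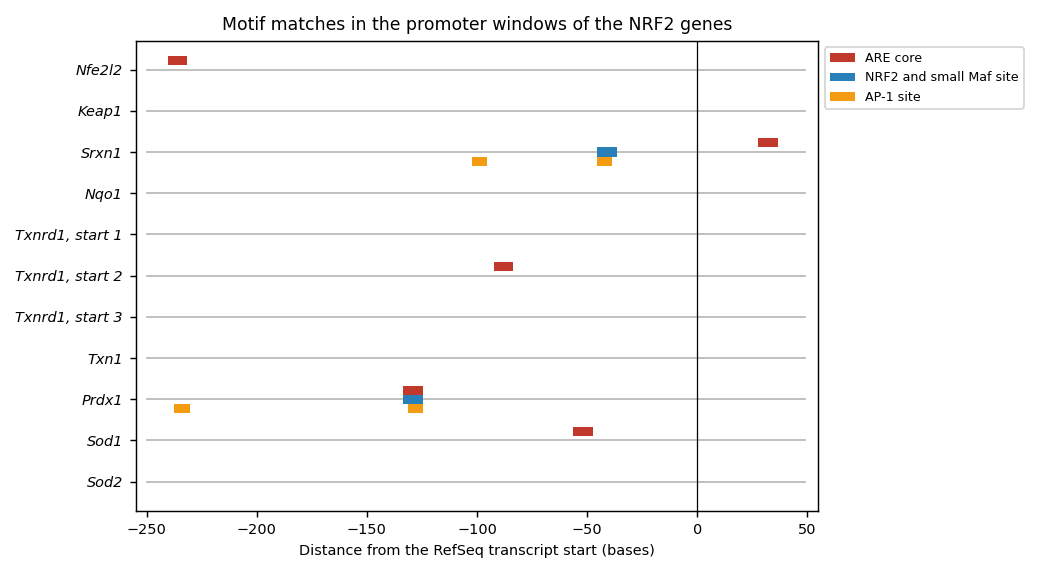
Motif matches (coloured blocks, either strand) in the promoter windows of the 9 genes with a RefSeq promoter, against distance in bases from the transcript start (vertical line); Txnrd1 has 3 annotated starts. Srxn1 and Prdx1 are the genes with a match to the NRF2 and small MAF site.

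Hmox1 encodes heme oxygenase 1, which breaks heme down to biliverdin, iron and carbon monoxide. It lies on the plus strand of chromosome 8 from 75093621 to 75100589 (ENSMUSG00000005413.8). It had 9.84, 11.04, 9.02 and 11.1 CPM in Tg females, against 5.90, 7.24, 5.92 and 4.41 CPM in WT females. In males it had 10.7, 9.74, 12.8 and 10.7 CPM in Tg muscle, against 8.91, 5.43, 7.76 and 6.59 CPM in WT muscle. No Tg library overlapped a WT library, although the gap between 9.02 CPM in a Tg female and 8.91 CPM in a WT male was narrow. The averaged log2 fold change was 0.71 (SE 0.11, adjusted p = 0.000177 in edgeR), with 80 to 337 counts per library, the fewest of the 10 genes.

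Macrophages also express Hmox1. Their 12 markers summed to 53.0 to 267 CPM in Tg libraries and 93.5 to 294 CPM in WT libraries, with none at 0 in any library, 0 called higher and 1 called lower in Tg (Mpeg1, not called under 9 of 27 alternatives). At an unadjusted p under 0.05 in edgeR there were 9 of the 12 in females and 0 in males. With the summed markers as a covariate the log2 fold change of Hmox1 was 0.84 (adjusted p = 3.03e-05 in edgeR). The part of macrophages in the Hmox1 result was not tested.

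Nqo1, a quinone reductase used as a standard readout of NRF2 activity, lies on the minus strand of chromosome 8 from 107388225 to 107403206 (ENSMUSG00000003849.8). It had 35.3, 34.0, 42.2 and 40.8 CPM in Tg females, against 28.6, 18.6, 27.4 and 22.5 CPM in WT females. In males it had 35.0, 31.9, 41.1 and 37.3 CPM in Tg muscle, against 27.5, 30.2, 31.2 and 29.5 CPM in WT muscle. Here too no Tg library overlapped a WT library of either sex. The averaged log2 fold change was 0.47 (SE 0.09, adjusted p = 0.000552 in edgeR).

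Srxn1, Nqo1 and Hmox1 were therefore the genes whose 8 Tg libraries all lay above all 8 WT libraries. Of all tested genes, 5.23% were separated in that way, and 2.69% with Tg below WT. Within females 5 of the 10 genes were separated with Tg above, against 10.8% of all genes with Tg above and 7.22% with Tg below. Within males 4 were, against 14% of all genes with Tg above and 11.7% with Tg below. The genes separated in females were Nfe2l2, Srxn1, Nqo1, Hmox1 and Txnrd1, and in males the same without Txnrd1.

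The thioredoxin system passes electrons from NADPH to peroxiredoxins, which remove peroxides. Of its genes here only Txnrd1, the cytosolic thioredoxin reductase, rose. Txnrd1 lies on the plus strand of chromosome 10 from 82833951 to 82897712 (ENSMUSG00000020250.10). It had 102, 113, 102 and 94.3 CPM in Tg females, against 70.6, 74.9, 75.5 and 72.1 CPM in WT females. In males it had 97.7, 93.7, 102 and 107 CPM in Tg muscle, against 85.9, 94.3, 89.7 and 93.3 CPM in WT muscle. The females were well apart, while in males the highest WT library passed the lowest Tg library. The averaged log2 fold change was 0.32 (SE 0.05, adjusted p = 9.19e-05 in edgeR).

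Txn1, the cytosolic thioredoxin that this reductase serves, lies on chromosome 4 from 57943373 to 57956411 (ENSMUSG00000028367.5). It had 31.4 to 38.8 CPM in Tg libraries (median 37.4), against 34.8 to 48.8 CPM in WT libraries (median 39.7). The ranges overlapped and the log2 fold change of -0.14 did not pass the test (SE 0.07, adjusted p = 0.126 in edgeR, or 0.0490 without WT female 4). The annotation also lists a processed pseudogene, Txn-ps1, so the assignment of reads to Txn1 is uncertain.

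Prdx1, a cytosolic peroxiredoxin, lies on chromosome 4 from 116685544 to 116700822 (ENSMUSG00000028691.12). It had 169 to 212 CPM in Tg libraries (median 196), against 202 to 237 CPM in WT libraries (median 211). The log2 fold change was -0.14 (SE 0.05, adjusted p = 0.0535 in edgeR), on the other side of 0 from Srxn1, whose product acts on this protein. The call was near the threshold: Prdx1 was called lower in Tg under 8 of 27 alternatives, with an adjusted p of 0.00704 in DESeq2 and 0.0497 in limma-voom.

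Superoxide dismutases showed no call in either compartment. Sod1, the cytosolic copper and zinc enzyme (chromosome 16, 90220754 to 90226329, ENSMUSG00000022982.10), had 132 to 202 CPM in Tg libraries, against 107 to 172 CPM in WT libraries. Its log2 fold change was 0.10 (SE 0.09, 95% interval -0.10 to 0.29, adjusted p = 0.469 in edgeR). Its exons share 180 bases with Scaf4 on the opposite strand.

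Sod2, the manganese enzyme of the mitochondrial matrix (chromosome 17, 13006846 to 13040063, ENSMUSG00000006818.5), had 219 to 263 CPM in Tg libraries, against 228 to 278 CPM in WT libraries. Its log2 fold change was -0.01 (SE 0.05, 95% interval -0.12 to 0.09, adjusted p = 0.856 in edgeR). This interval was among the narrowest of the 10 genes, next to that of Txnrd1. The SD of log2 CPM within groups was 0.079 for both Sod2 and Txnrd1, lower than that of all but 2.58% and 2.6% of tested genes. For Srxn1 it was 0.24, against a median of 0.20 over all genes.

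The genes also differed in level once CPM was divided by transcript length. With the longest principal transcript of each gene, Srxn1 was at 30.0 ± 4.09 CPM per kb in Tg muscle and 8.52 ± 2.06 CPM per kb in WT muscle (SD, n = 8 each), the fifth and the ninth of the 10 levels. Hmox1 was the lowest of the 10 in both, at 6.77 ± 0.729 CPM per kb in Tg muscle and 4.16 ± 0.906 CPM per kb in WT muscle. Sod1 was the highest, at 231 ± 36.3 CPM per kb in Tg muscle and 216 ± 30.1 CPM per kb in WT muscle. Between them the order in Tg muscle was Prdx1, Sod2, Txn1, Srxn1, Txnrd1, Keap1, Nqo1 and Nfe2l2, and the mean ± SD of each neighbouring pair overlapped from Txn1 down. In WT muscle it was Prdx1, Sod2, Txn1, Txnrd1, Keap1, Nfe2l2, Nqo1 and Srxn1, with overlap between Sod2 and Txn1 and between neighbours from Txnrd1 to Nqo1. The order rests on the length used. With the shortest principal transcripts Prdx1 was above Sod1 in WT, within their SDs, and Srxn1 was the seventh in Tg. With the union of all annotated exons Sod1 was at 37.4 ± 5.86 CPM per kb in Tg muscle and 34.9 ± 4.87 CPM per kb in WT muscle, below Prdx1 at 63.9 ± 4.33 CPM per kb in Tg muscle and 70.6 ± 3.90 CPM per kb in WT muscle (SD, n = 8 each). Hmox1 was the lowest of the 10 and Srxn1 the ninth in WT under all 3 lengths.

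In females 5 of the 10 genes rose (Nfe2l2, Srxn1, Nqo1, Hmox1 and Txnrd1) and 0 fell, with 17.7% of all tested genes called, 10.1% higher and 7.57% lower. In males 2 rose (Srxn1 and Hmox1) and 0 fell, with 18.2% of all tested genes called, 9.85% higher and 8.39% lower. The log2 fold change of Srxn1 was 2.12 in females (SE 0.16, adjusted p = 2.26e-07) and 1.55 in males (SE 0.16, adjusted p = 5.16e-06). Txnrd1 had 0.49 in females (SE 0.07, adjusted p = 0.000106) and 0.14 in males (SE 0.07, adjusted p = 0.161). Nfe2l2 had 0.50 in females (SE 0.10, adjusted p = 0.00284) and 0.21 in males (SE 0.10, adjusted p = 0.169).

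For Nqo1 the value was 0.65 in females (SE 0.12, adjusted p = 0.00167) and 0.29 in males (SE 0.12, adjusted p = 0.108), and it was called in males when males were fitted alone (adjusted p = 0.0308). Hmox1 had 0.80 (SE 0.16, adjusted p = 0.00273) in females and 0.61 (SE 0.16, adjusted p = 0.0125) in males.

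The test of the difference between the sexes called 0 of the 10 genes in edgeR, 1 in DESeq2 and 0 in limma-voom, with 2 at an unadjusted p under 0.05. Over all genes it called 0.00732%. The male minus female genotype effect was -0.35 for Txnrd1 (SE 0.09, adjusted p = 0.284; DESeq2 adjusted p = 0.0301). It was -0.57 for Srxn1 (SE 0.22, adjusted p = 0.596). The 95% interval of this difference, not adjusted for the number of genes, ran from -0.55 to -0.15 for Txnrd1 and from -1.03 to -0.10 for Srxn1.

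The median genotype effect on macrophage, adipocyte and fibroblast markers was lower in females than in males, and that on erythroid markers higher. These differences were not tested. The median log2 fold change of Tg over WT was -0.98 in females and 0.03 in males for 12 macrophage markers, -1.13 in females and -0.31 in males for 10 adipocyte markers, and -0.56 in females and 0.22 in males for 8 fibroblast markers. It was 0.48 in females and 0.14 in males for 5 tested erythroid markers. For 8 endothelial markers it was 0.11 and 0.12, and for 3 tested neutrophil markers -0.20 and 0.82. Macrophage markers summed to 53.0 to 147 CPM in Tg females and 93.5 to 294 CPM in WT females, and to 111 to 267 CPM in Tg males and 106 to 211 CPM in WT males. Adipocyte markers summed to 984 to 2420 CPM in Tg females and 1405 to 4837 CPM in WT females, and to 707 to 2618 CPM in Tg males and 760 to 4714 CPM in WT males. The ranges overlapped in each sex. Their part in the calls by sex was not tested; with these sums as covariates the male minus female genotype effect of Txnrd1 was -0.28 (adjusted p = 0.565) with the adipocyte and -0.35 (adjusted p = 0.643) with the macrophage covariate in edgeR.

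**Figure D3:**
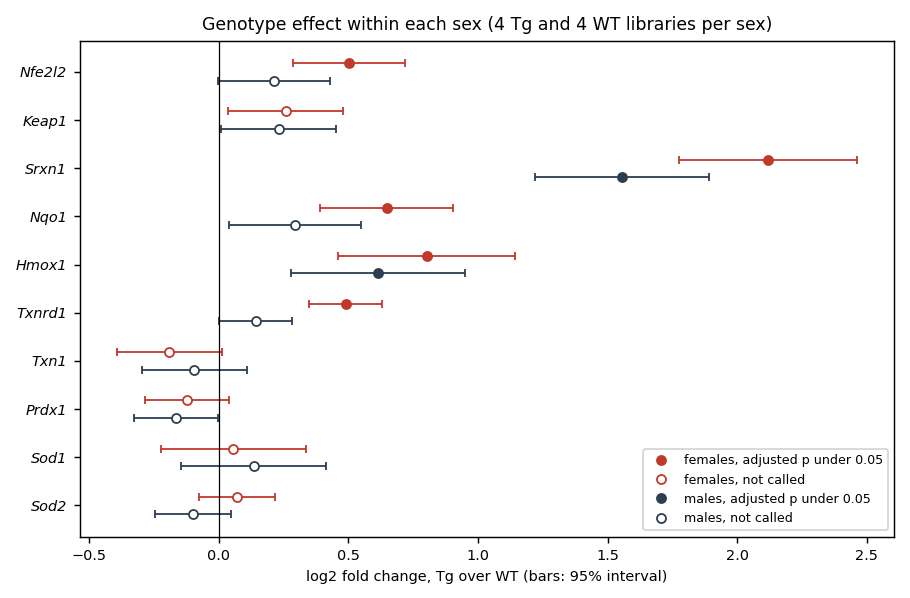
Log2 fold change of Tg over WT (points) with its 95% interval (bars) for the 10 genes, in females and in males, from 4 Tg and 4 WT libraries per sex; filled points passed the test. The effect of Srxn1 was 2.12 in females and 1.55 in males, and 5 genes passed in females and 2 in males.

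The sexes themselves were compared within each genotype. Among WT mice Txnrd1 was higher in males (90.8 ± 3.80 CPM) than in females (73.3 ± 2.30 CPM; SD, n = 4 each), with a log2 difference of 0.31 (SE 0.07, adjusted p = 0.0142 in edgeR) where 3.67% of all genes were called, 2.01% higher in males and 1.65% lower. Without WT male 2 or WT male 4 the adjusted p was 0.0547 or 0.0501. Srxn1 averaged 28.0 ± 3.40 CPM in WT males and 19.9 ± 4.82 CPM in WT females (SD, n = 4 each), a log2 difference of 0.49 that edgeR did not call (adjusted p = 0.114; DESeq2 adjusted p = 0.0395). Without WT female 2, a fat-rich library, it was 0.65 and called (adjusted p = 0.0196). Without all 4 fat-rich libraries it was 0.79 and also called (adjusted p = 0.0301 in edgeR).

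Among Tg mice 0 of the 10 genes were called between the sexes in edgeR, with 1 at an unadjusted p under 0.05, and 1 called in DESeq2. Of all genes 0.527% were called, 0.351% higher in males and 0.176% lower. That gene was Nfe2l2, with 50.4 ± 4.66 CPM in Tg males and 66.7 ± 7.15 CPM in Tg females (SD, n = 4 each). Its log2 difference was -0.40 (SE 0.10, adjusted p = 0.120 in edgeR, 0.0395 without WT female 3 and 0.0288 without the 4 fat-rich libraries). Txnrd1 was at 100.3 ± 5.91 CPM in Tg males and 102.9 ± 7.84 CPM in Tg females (SD, n = 4 each). The sexes of the Tg mice differed in Txnrd1 by less than the spread between libraries.

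By the root mean square difference of centred log2 CPM over the 16 libraries, the genes closest to Srxn1 among 12200 were Extl1 (0.24), Slc19a2 (0.25) and Gbe1 (0.27). Extl1, a member of the exostosin glycosyltransferase family, averaged 154 ± 14.5 CPM in Tg muscle and 43.5 ± 10.9 CPM in WT muscle (SD, n = 8 each). Slc19a2, a thiamine transporter gene, averaged 21.1 ± 1.55 CPM in Tg muscle and 7.52 ± 1.60 CPM in WT muscle (SD, n = 8 each). Gbe1, the glycogen branching enzyme gene, averaged 153 ± 25.3 CPM in Tg muscle and 47.2 ± 10.9 CPM in WT muscle (SD, n = 8 each). For each of these genes every Tg library lay above every WT library, as for Srxn1. That largely follows from choosing them by likeness to Srxn1 over the same libraries.

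Around these genes lies the rest of the NRF2 circuit. Of 16 partners and repressors of NRF2, 8 rose and 2 fell (all tested genes: 17.2% and 13.3%), with a median log2 fold change of 0.15. The small MAF genes Mafg and Mafk, whose products pair with NRF2, rose 1.62-fold and 1.54-fold, while the log2 fold change of Maff, the third small MAF gene, was -0.05 (SE 0.18, adjusted p = 0.865 in edgeR). Mafg averaged 39.01 ± 4.11 CPM in Tg muscle and 24.1 ± 3.12 CPM in WT muscle (SD, n = 8 each), with no overlap between libraries. Nfe2l1, which encodes the related factor NRF1 that also controls proteasome genes, averaged 1262 ± 99.5 CPM in Tg muscle and 803 ± 65.6 CPM in WT muscle (SD, n = 8 each). Sqstm1, whose product p62 binds KEAP1, rose 1.39-fold. Genes that restrain NRF2 were called in both directions. Bach1, which competes for the same sites, fell by 0.29 on the log2 scale (SE 0.07), and the ligase subunit gene Cul3 fell by 0.45 (SE 0.09). The related Bach2 rose by 0.63 (SE 0.17), the kinase gene Gsk3b by 0.32 (SE 0.11) and the ubiquitin ligase gene Syvn1 by 0.24 (SE 0.08), as Keap1 did. These 5 list genes, and Maff above, were named after their values were seen.

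Of 28 other NRF2 target genes 26 were tested (Gpx2 and Gsta1 had too few counts). Among these 26, 8 rose and 3 fell (all tested genes: 17.2% and 13.3%), with a median of -0.07. Gsr, glutathione reductase, averaged 31.7 ± 1.69 CPM in Tg muscle and 23.6 ± 1.27 CPM in WT muscle (SD, n = 8 each). Gclm, the modifier subunit of the enzyme that starts glutathione synthesis, rose 1.39-fold. Me1, an NADPH-making malic enzyme also used in fat synthesis, fell to 301 ± 29.6 CPM in Tg muscle, against 507 ± 104 CPM in WT muscle (SD, n = 8 each), with no overlap. Slc7a11, which brings in cystine and is also a target of ATF4, had 16.98 to 28.2 CPM in Tg libraries, against 3 counts in all of WT, 2 in WT female 3 and 1 in WT male 2. The ratio was 1316 (95% counting interval 450 to 6385), 3537 without WT female 3 and 818 without the 4 fat-rich libraries.

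Of 21 other thioredoxin, peroxiredoxin and glutaredoxin genes, 5 rose and 4 fell (all tested genes: 17.2% and 13.3%), with a median of 0.03. The list also holds methionine sulfoxide reductase and sestrin genes. Of the 4 that fell, only Txnrd2 belonged to the named families, and of the 5 that rose, only Sesn2 lay outside them. Sesn2, a sestrin that is also on the ATF4 list, had 26.1 to 42.8 CPM in Tg libraries, against 1.97 to 4.55 CPM in WT libraries, a log2 fold change of 3.39 (SE 0.16). Txn2, the mitochondrial thioredoxin, averaged 176 ± 9.69 CPM in Tg muscle and 129 ± 12.4 CPM in WT muscle (SD, n = 8 each), while its cytosolic counterpart Txn1 did not pass the test. The methionine sulfoxide reductase genes Msrb2 and Msrb3 fell by 0.40 (SE 0.06) and 0.48 (SE 0.08) on the log2 scale.

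Of 10 other superoxide and peroxide removal genes, 2 rose and 3 fell (all tested genes: 17.2% and 13.3%), with a median of -0.11. Gpx4, the peroxidase of lipid hydroperoxides, averaged 360 ± 26.7 CPM in Tg muscle and 246 ± 23.9 CPM in WT muscle (SD, n = 8 each). Ccs, the copper chaperone that loads Sod1, rose 1.25-fold. Gpx7 and Park7 fell by 0.50 (SE 0.11) and 0.39 (SE 0.09) on the log2 scale.

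Of 13 heme supply and breakdown genes, 1 rose and 1 fell (all tested genes: 17.2% and 13.3%), with a median of -0.03. Flvcr1, whose product carries choline and has been described as a heme exporter, fell to 14.8 ± 3.18 CPM in Tg muscle, against 32.4 ± 14.5 CPM in WT muscle (SD, n = 8 each). The other call was Uros, a heme synthesis enzyme gene, at 1.14-fold, which was lost under 15 of 27 alternatives. The heme oxygenase gene Hmox1 is not on this list.

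For comparison, 12 of 14 genes of the ATF4 axis, the transcription factor arm of the integrated stress response, rose and 0 fell (all tested genes: 17.2% and 13.3%). Their median was 2.45. Atf4 averaged 330 ± 17.1 CPM in Tg muscle and 149.5 ± 18.9 CPM in WT muscle (SD, n = 8 each), and Trib3 rose 53.2-fold. The difference in median between this list and the NRF2 lists was not tested.

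**Figure D4:**
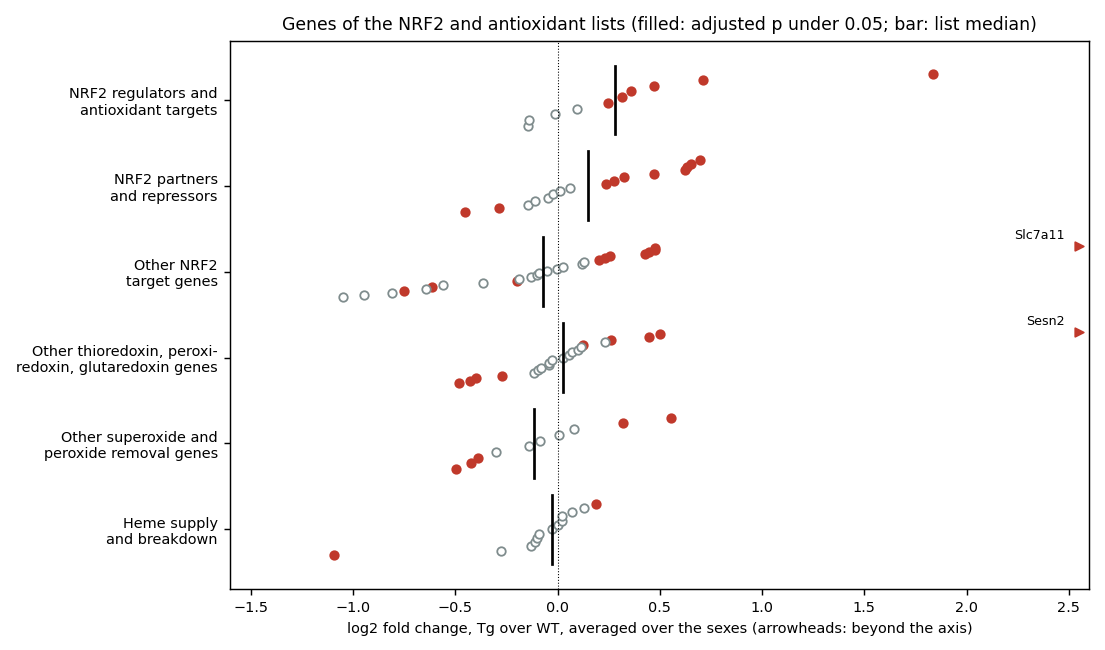
Log2 fold change of Tg over WT, averaged over the sexes, for each tested gene (points) of 6 lists; filled points passed the test, vertical bars are list medians, and arrowheads mark genes beyond the axis. Medians of the lists beside the 10 genes lie between -0.11 and 0.15, with calls on both sides of 0.

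Markers of other cell types varied between libraries. Of 10 adipocyte markers 0 were called, also in DESeq2 and limma-voom, and 0 were below an unadjusted p of 0.05. Under 3 of 27 alternatives 1 of these markers was called. Their sum was 707 to 2618 CPM in Tg libraries and 760 to 4837 CPM in WT libraries, with none at 0 in any library, and their median log2 fold change was -0.74. The log2 fold changes of Nfe2l2, Srxn1, Nqo1, Hmox1 and Txnrd1 were 0.30, 1.95, 0.40, 0.82 and 0.30 without the 4 fat-rich libraries, and all 5 were still called. Keap1 was not (0.21, adjusted p = 0.123 in edgeR). Of 8 endothelial and 8 fibroblast markers 0 were called in edgeR, DESeq2 and limma-voom, with 1 of each under an unadjusted p of 0.05. Under other alternatives up to 3 endothelial markers (4 of 27 alternatives) and up to 3 fibroblast markers (3 of 27) were called. Of 12 muscle fibre markers 3 rose and 3 fell (all tested genes: 17.2% and 13.3%). The fast fibre genes Myh4, Tnnt3 and Casq1 fell by 0.53 (SE 0.13), 0.33 (SE 0.10) and 0.41 (SE 0.11) on the log2 scale. Des, the muscle intermediate filament gene, rose by 0.30 (SE 0.07) and Myh1, the myosin of IIx fibres, by 1.05 (SE 0.30). Myh7, the slow myosin gene, rose by 4.10 (SE 1.26), with 56.1 ± 142 CPM in Tg muscle and 1.60 ± 2.54 CPM in WT muscle (SD, n = 8 each), a spread wider than either mean. Myh1 and Myh7 were named after their values were seen, and the part of fibre type in the results above was not tested. Of 5 tested erythroid markers 1 rose (Hba-a1, not called under 16 of 27 alternatives), and of 3 tested neutrophil markers 1 rose (S100a8), at 0.266 to 1.33 CPM in Tg libraries and at most 0.312 CPM in WT libraries. The part of red cells and neutrophils in the results above was not tested.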

How the data were processed

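No label gives a unit; the deposited values were taken as estimated counts per gene that the authors made after trimming and alignment, since 93.53% of nonzero values lie within 0.01 of a whole number and library totals differ. Tools listed in the submitters' processing notes are cutadapt 1.2.1, bcl2fastq, Bowtie2 and TopHat2, with build mm10; the read counter is not given in the sources used here. Values were rounded to whole numbers.

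In R 4.3.3 with edgeR 4.0.16, genes were kept by filterByExpr (minimum count 10, total 15), library sizes scaled by TMM (factors 0.887 to 1.10) and 1 mean per group fitted to 16 libraries (robust quasi-likelihood, two-sided). The biological coefficient of variation was 0.201. Adjusted p values are Benjamini-Hochberg over 13666 genes. DESeq2 1.42.0 and limma 3.58.1 served as alternatives. Counting intervals are at 95% and cover counting error only. Replicates correlated at 0.955 to 0.992, and no pair looked like 1 library deposited again.

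The members, lists and tests were chosen with earlier results of these data known. Named are all 10 members, up to 4 called genes per list by adjusted p (some not reported here), Slc25a4, and the 3 genes most like a member that was called with a log2 fold change of at least 1. Positions are from GENCODE M21, which is on the same build, and promoters from RefSeq (GRCm38.p6).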

Additional observations from a re-analysis of the deposited data

Results flagged for a closer look

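In WT males, 1 library (replicate 1) had a summed adipocyte marker level of 4714 CPM, against 760 to 1070 CPM in the other 3, a gap that passed Dixon's test. Of 52 groups of 4 libraries tested in this way 1 passed, where chance gives about 1 in 20, or 2.6. No group of the 10 NRF2 and antioxidant genes passed.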

How the results depend on the processing

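Of the 10 genes, 5 to 7 were called for the averaged effect under the alternatives (6 as reported), 5 or 6 in females (5) and 2 or 3 in males (2). Over all genes the number called was 3621 to 4565 (4158). The alternatives held other scalings, filters, tests and covariates, and 1, 2 or 4 libraries left out; the set of 4 fat-rich libraries and all alternatives for the sex differences and the further lists were chosen after seeing the data. Over single genes, 1837 of 1911 values kept their direction and their side of the threshold, and 5 reversed, all of genes not called. These were Sod2 averaged, at 0.0025 without Tg male 3 and 0.012 without WT male 2 (-0.032 to 0.012 over single libraries left out), and Sod2 in females, at -0.0043 with the macrophage covariate. The others were Sod1 in females, at -0.033 without WT female 3 (-0.033 to 0.12), and Sod1 in males, at -0.0025 without Tg male 2 (-0.0025 to 0.21). DESeq2 called 1 gene for the difference of the genotype effect between the sexes (Txnrd1), 1 for males against females in Tg (Nfe2l2) and 2 in WT (Srxn1 and Txnrd1). Without the 4 fat-rich libraries these sex differences numbered 1 in Tg and 2 in WT, and without the 2 adipocyte-rich libraries 2 in WT. Leaving out single libraries gave 0 to 1 in Tg and 0 to 2 in WT. The cause was not tested. No scaling moved the median of all genes by over 0.02 on the log2 scale. No paired analysis was possible because replicate numbers were given in accession order and no label ties a Tg mouse to a littermate. At 80 to 337 counts per library, depth limits Hmox1 most among the 10 genes.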
